A study of Mus musculus with 19 samples.

Results

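The genes described here are the G1 cyclins, the kinase Cdk6 and the cyclin-dependent kinase (CDK) inhibitors, followed across 6 groups of mouse CD8 T lymphocytes. A gene was taken where a probe set of the array carried its symbol alone, and where several did, the brightest over all 19 arrays was used. Of the 10 listed genes (Ccnd1, Ccnd2, Ccnd3, Ccne1, Ccne2, Cdkn1a, Cdkn1b, Cdkn2c, Cdkn2d and Cdk6), 9 had such a probe set, among 19938 genes measured in all. The probe set of Cdkn1a carried a further gene symbol, so Cdkn1a has no value here.

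RNA was hybridised to Affymetrix mouse gene arrays, 0.125 µg per array, and the values are log2 signals, on which a difference of 1 is a doubling. Arrays are named by their number in the labels. The TCRP1A cells of 16 arrays have a single transgenic T-cell receptor and are Rag-1-/- on B10.D2, a genotype that makes no other T or B cells. Naive cells gave arrays 33 to 36 (n = 4). Cells activated with their antigen for 72 h gave arrays 1 to 4 (control, n = 4). Arrays 9 and 10 came from antigen-activated cells at 72 h that had been transduced with Stat5ca, a constantly active form of the transcription factor Stat5, and were labelled GFP+ (n = 2). Activated cells were also injected into congenic hosts and recovered from spleen and lymph nodes. The control cells among these were recovered on day 18 (array 30) and day 120 (array 32), and the Stat5ca cells on day 20 (arrays 11 to 14). The labels do not say which lymphocytes the hosts still had. The remaining group was genotype T-BetKO, given the strain C57BL/6 beside a B10.D2 background. Its cells were activated with anti-CD3/CD28, received Stat5ca after 24 h, and were recovered on day 14 (arrays 39 and 40) or day 54 (array 41). The labels do not say that control cells were transduced, so Stat5ca cannot be told apart from transduction, nor at 72 h from selection of GFP+ cells. Separate animals or cultures are not stated for the arrays within a group, so the p-values speak only of spread among these arrays, which may be technical.

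D-type cyclins (Ccnd1, Ccnd2 and Ccnd3) bind Cdk4 and Cdk6 after a mitogen signal, and these complexes phosphorylate the retinoblastoma protein, which frees E2F factors to induce S-phase genes. Cyclin E (Ccne1 and Ccne2), an E2F target, then activates Cdk2 at the entry into S phase. The INK4 inhibitors Cdkn2c and Cdkn2d bind Cdk4 and Cdk6 and keep them from D-type cyclins, while the Cip/Kip inhibitors Cdkn1a and Cdkn1b act mainly on the cyclin E and Cdk2 complex. In T cells, cytokine signals through Stat5 are known to raise D-type cyclins and to lower the Cdkn1b protein, and resting cells keep Cdkn1b high.

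Stat5a itself was measured first. Its mean was 12.06 ± 0.09 (SD, n = 2) in Stat5ca cells and 10.56 ± 0.04 (n = 4) in control cells at 72 h, and 11.68 ± 0.12 (n = 4) against 10.25 ± 0.30 (n = 2) after transfer. T-BetKO Stat5ca cells were lower, at 10.93 ± 0.11 (n = 3). The T-cell marker genes were high on every array, with a mean over 11 genes between 11.74 and 12.70, so the defining genes of the labelled cell type were present. A mean over 17 myeloid marker genes, however, ran from 7.11 to 12.89, with the lowest 2 values in Stat5ca cells at 72 h, 10.05 to 11.01 in Stat5ca cells after transfer, and 12.74 and 12.89 in control cells after transfer. Within the naive group it was 7.96 and 8.92 on arrays 33 and 35 and 12.27 and 12.12 on arrays 34 and 36. RNA of both sexes was present on 6 arrays (10, 13, 30, 35, 39 and 40), which held Xist at 10.09 or more together with Y-linked genes at 7.52 or more. Signal of genes that are not expressed was taken as 7.32, the 95th percentile over 1190 olfactory and vomeronasal receptor genes.

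The promoters of Ccne1, Cdkn2c and Cdk6 are shown. Of the 5 listed genes called higher in Stat5ca than in control cells after transfer, these 3 had the largest differences. Each is the 250 bases before the annotated start, from RefSeq on build GRCm38.p6, read 5′ to 3′ on the strand of the gene, with GGGCGG or its complement (the letters of a GC box) in capitals. Ccne1 lies on the minus strand at chr7:38107491-38107740, Cdkn2c, with the first of its 2 annotated starts, on the minus strand at chr4:109666757-109667006, and Cdk6 on the plus strand at chr5:3343643-3343892.
Ccne1: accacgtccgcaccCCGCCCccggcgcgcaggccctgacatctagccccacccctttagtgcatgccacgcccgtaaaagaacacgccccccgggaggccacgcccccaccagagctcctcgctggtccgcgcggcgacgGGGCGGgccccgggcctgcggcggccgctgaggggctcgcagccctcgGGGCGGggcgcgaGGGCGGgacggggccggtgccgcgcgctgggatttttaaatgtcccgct
Cdkn2c: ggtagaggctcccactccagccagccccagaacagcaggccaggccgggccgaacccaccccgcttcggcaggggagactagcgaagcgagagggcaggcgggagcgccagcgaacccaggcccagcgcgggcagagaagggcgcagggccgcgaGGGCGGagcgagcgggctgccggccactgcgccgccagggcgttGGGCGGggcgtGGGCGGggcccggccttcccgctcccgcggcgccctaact
Cdk6: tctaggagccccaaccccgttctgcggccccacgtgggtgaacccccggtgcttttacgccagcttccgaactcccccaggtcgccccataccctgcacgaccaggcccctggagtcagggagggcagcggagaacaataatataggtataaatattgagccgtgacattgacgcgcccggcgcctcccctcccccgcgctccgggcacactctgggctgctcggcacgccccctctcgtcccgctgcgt
GGGCGG was found 4 times for Ccne1 and 3 times for Cdkn2c, and the 250 bases of Cdk6 held no match. Over the 7 listed genes with a sequence here, 7 of 10 such windows held it, against 32.7% of 32851 promoters of the same length, and these letters were chosen after the sequences were seen. TTCNNNGAA, the letters of a STAT site, and the E2F-type letters TTTCCCGC, TTTGGCGC, TTTGCCGC and TTTCGCGC were in none of the 10 windows on either strand, against 7.02% and, for any of the E2F-type letters, 1.86% of all promoters. GC content was 76.0% for Ccne1, 77.2% for Cdkn2c and 66.0% for Cdk6.

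**Figure D1:**
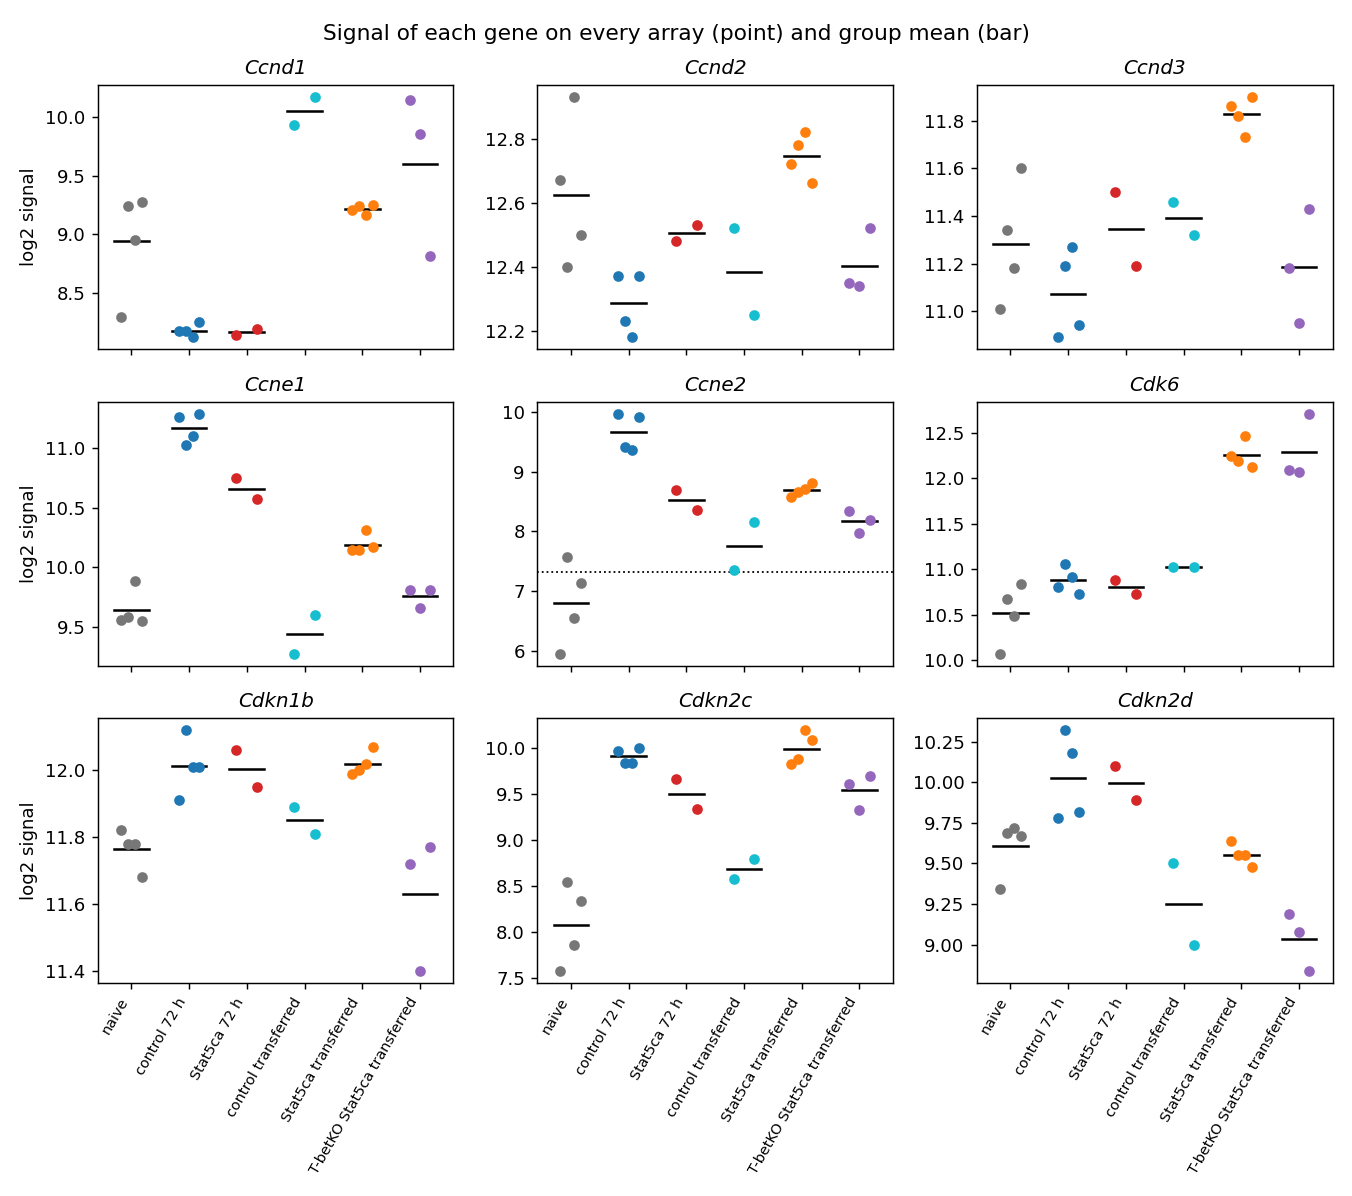
Log2 signal (y axis) of each of the 9 measured genes on every array (points) in the 6 groups (x axis), with the group mean as a bar; each panel has its own y range, and the dotted line for Ccne2 is the level of genes that are not expressed, 7.32. Ccne1 and Ccne2 sit highest in control cells at 72 h, Cdk6 is above 12 in both Stat5ca groups after transfer and at or under 11.06 elsewhere, and Ccnd1 is lowest at 72 h.

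Among the D-type cyclins, Ccnd1 varied most, over 1.89 log2 units between the lowest and highest group mean. Control arrays at 72 h read 8.17, 8.17, 8.12 and 8.25, and Stat5ca arrays at 72 h read 8.14 and 8.19. Naive arrays 33 to 36 gave 8.29, 9.24, 8.95 and 9.27. All 6 arrays at 72 h therefore lay under every naive array. After transfer Ccnd1 read 9.93 and 10.17 in control cells, 9.21, 9.24, 9.16 and 9.25 in Stat5ca cells, and 10.14, 9.85 and 8.81 in T-BetKO Stat5ca cells. The order of group means was control transferred (10.05), T-BetKO Stat5ca transferred (9.60), Stat5ca transferred (9.21), naive (8.94), control 72 h (8.18) and Stat5ca 72 h (8.16). In that order, no neighbours other than naive and control 72 h were free of overlap between their arrays.

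Ccnd2, the D-type cyclin induced early by antigen and interleukin-2, was bright in all groups and varied over 0.46 only. It read 12.40 to 12.93 in naive cells, 12.18 to 12.37 in control and 12.48 and 12.53 in Stat5ca cells at 72 h. After transfer it was 12.52 and 12.25 in control cells, 12.66 to 12.82 in Stat5ca cells and 12.34 to 12.52 in T-BetKO Stat5ca cells. Every pair of neighbours in its order overlapped. Ccnd3, the cyclin that dividing thymocytes depend on, varied over 0.76 and was highest in Stat5ca cells after transfer, at 11.86, 11.82, 11.73 and 11.90. Those 4 arrays lay above all 15 others, which ran from 10.89 to 11.60.

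The cyclin E genes followed activation. Control arrays at 72 h read 11.26, 11.03, 11.10 and 11.29 for Ccne1, and Stat5ca arrays at 72 h read 10.75 and 10.57. Naive cells gave 9.56, 9.58, 9.88 and 9.55. All arrays at 72 h were above all others. After transfer Ccne1 was 9.27 and 9.60 in control cells, 10.14, 10.14, 10.31 and 10.17 in Stat5ca cells, and 9.81, 9.66 and 9.81 in T-BetKO Stat5ca cells. The 4 highest groups in its order (control 72 h, Stat5ca 72 h, Stat5ca transferred and T-BetKO Stat5ca transferred) did not overlap with one another.

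Ccne2 had the widest range of the 9 genes, 2.87 between group means. It read 9.97, 9.42, 9.36 and 9.92 in control cells at 72 h, against 5.95, 7.58, 6.55 and 7.14 in naive cells, whose mean of 6.80 is under the level of genes that are not expressed. Stat5ca cells at 72 h gave 8.70 and 8.36. These lay between control cells at 72 h and naive cells. After transfer the values were 7.35 and 8.16 in control cells, 8.58, 8.66, 8.71 and 8.81 in Stat5ca cells, and 8.34, 7.98 and 8.19 in T-BetKO Stat5ca cells. Neighbours in profile were sought for members whose group means span more than 2, which Ccne2 alone did. The search covered all genes outside the list whose highest group mean was above the level of genes that are not expressed. Nearest to Ccne2 after centring over the 6 groups were H1f5, a linker histone (root mean square difference 0.18), and Chek1, a kinase of the DNA replication checkpoint (0.20). Chek1 means were 7.40 in naive, 10.19 in control 72 h, 9.09 in Stat5ca 72 h, 7.79 in control transferred, 9.09 in Stat5ca transferred and 8.76 in T-BetKO Stat5ca transferred cells.

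Cdk6, the kinase partner of the D-type cyclins, stood at 2 levels. Naive arrays read 10.07, 10.67, 10.49 and 10.84, control arrays at 72 h 10.81, 11.06, 10.92 and 10.73, Stat5ca arrays at 72 h 10.88 and 10.73, and control arrays after transfer 11.03 and 11.03. Stat5ca cells after transfer gave 12.24, 12.19, 12.46 and 12.12, and T-BetKO Stat5ca cells 12.09, 12.07 and 12.71. The 7 arrays of transferred Stat5ca cells were all at 12.07 or above, and the other 12 were all at 11.06 or below.

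Of the inhibitors, Cdkn2c varied most (1.91 between group means). It read 7.58, 8.54, 7.86 and 8.34 in naive cells, 9.97, 9.83, 9.83 and 10.00 in 72 h control cells, and 9.66 and 9.34 in 72 h Stat5ca cells. After transfer it was 8.58 and 8.79 in control cells, 9.82, 9.88, 10.19 and 10.08 in Stat5ca cells, and 9.61, 9.32 and 9.69 in T-BetKO Stat5ca cells. Control cells after transfer were above every naive array and below every array of the remaining 4 groups. Stat5ca transferred (9.99) and control 72 h (9.91) overlapped at the top of the order.

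Cdkn2d, the other INK4 gene of the set, ranged over 0.98. It was 9.78 to 10.32 in control and 9.89 and 10.10 in Stat5ca cells at 72 h, 9.34 to 9.72 in naive cells, and 9.50 and 9.00 in control, 9.48 to 9.64 in Stat5ca and 8.84 to 9.19 in T-BetKO Stat5ca cells after transfer. Both groups at 72 h lay above all others without overlap. Cdkn1b, which codes for p27, had the smallest range, 0.39. Its arrays lay between 11.40 (T-BetKO array 40) and 12.12 (control array 2), with naive cells at 11.68 to 11.82 and Stat5ca cells after transfer at 11.99 to 12.07. A second, dimmer Cdkn1b probe set gave group means of 8.73 (naive), 9.41 (control 72 h), 9.25 (Stat5ca 72 h), 9.17 (control transferred), 9.51 (Stat5ca transferred) and 8.81 (T-BetKO), and on both probe sets naive and T-BetKO cells had the lowest means and Stat5ca cells after transfer the highest.

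After 72 h with antigen, control cells had more cyclin E and more Cdkn2c RNA than naive cells, and less Ccnd1 and Ccnd2. With limma, 8 of the 9 genes passed an adjusted p of 0.05, 6 higher and 2 lower, where 46.8% of all genes passed (22.0% higher and 24.9% lower). The median change over the 9 genes was 0.36, against -0.09 over all genes. Ccne2 rose by 2.86 ± 0.28 (SE, adjusted p = 1.24e-06), or by 2.35 counted from the level of genes that are not expressed. Ccne1 rose 2.89-fold (1.53 ± 0.10, adjusted p = 1.97e-08). Cdkn2c rose 3.55-fold (1.83 ± 0.17, adjusted p = 7.22e-07). All 4 control arrays were above all 4 naive arrays for each of these 3 genes. Ccnd1 fell by 0.76 ± 0.16 (adjusted p = 0.00125) and Ccnd2 fell by 0.34 ± 0.10 (adjusted p = 0.0153), while Ccnd3 changed by -0.21 ± 0.12 (adjusted p = 0.157). Cdkn1b rose by 0.25 ± 0.06 (adjusted p = 0.00498), Cdkn2d by 0.42 ± 0.14 (adjusted p = 0.0204) and Cdk6 by 0.36 ± 0.13 (adjusted p = 0.0379).

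The rises of Cdkn2d and Cdk6 depended on single arrays. Cdkn2d was not called without control array 2 or 3 or naive array 33 (0.32 to 0.37, adjusted p 0.0534 to 0.0727), nor Cdk6 without control array 1, 2 or 3 or naive array 33 or 35 (0.21 to 0.39, adjusted p 0.0515 to 0.119). Centring each array on its median shifts every difference of this comparison by 0.13, and Ccnd2 is then at -0.21 (adjusted p = 0.14), while quantile normalization ends the calls of Cdkn1b (0.12), Cdkn2d (0.31) and Cdk6 (0.24). Naive cells differ among themselves in the myeloid level, and the result depended on the arrays kept. The mean of the proliferation markers splits them alike (8.29 and 8.63 on arrays 33 and 35, 9.78 and 9.72 on arrays 34 and 36). These levels cannot be told apart here. Without arrays 34 and 36, where both levels are high, Ccnd1 was at -0.45, Ccne2 at 3.42 and Cdkn2c at 2.19. Without arrays 33 and 35, where both are low, they were at -1.08, 2.31 and 1.46. Ccnd3 was then called lower (-0.40, adjusted p = 0.0175), and Ccnd2 (-0.16, adjusted p = 0.175), Cdkn2d (0.34) and Cdk6 (0.13) were not called. In bulk RNA, fewer cells of a type and less RNA per cell cannot be told apart.

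Other regulators of the G1 to S transition moved with activation as well. Of 40 measured, 29 rose and 4 fell, with a median change of 0.72, where 22.0% of all genes rose and 24.9% fell (median -0.09). Ccna2, the S-phase cyclin, rose by 3.79 ± 0.56, Cks1b, which assists degradation of Cdkn1b protein, by 3.10 ± 0.26, Ccnf, a cyclin-like F-box protein, by 3.00 ± 0.20, and the E2F repressor E2f8 by 2.72 ± 0.54. All 15 proliferation markers rose, with a median of 2.91 and Bub1, a spindle checkpoint kinase, leading at 4.24 ± 0.45.

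Recovered after transfer, control cells had less cyclin E and Cdkn2c signal than control cells at 72 h, and more Ccnd1 signal. Against control cells at 72 h, 5 of 9 genes were called, 1 higher and 4 lower, where 37.5% of all genes were called (13.1% higher and 24.4% lower). The median was -0.16 for the 9 genes and -0.04 for all. Ccne2 fell by 1.91 ± 0.34 (adjusted p = 0.000376), Ccne1 by 1.73 ± 0.12 (adjusted p = 9.14e-08) and Cdkn2c by 1.22 ± 0.21 (adjusted p = 0.000244). Cdkn2d fell by 0.77 ± 0.17 (adjusted p = 0.00155), but without array 32, the day 120 array, it was at -0.52 (adjusted p = 0.0607). Ccnd1 rose by 1.87 ± 0.19 (adjusted p = 2.79e-06), and both control arrays after transfer were above all at 72 h. Ccnd2 (0.10), Ccnd3 (0.32), Cdkn1b (-0.16) and Cdk6 (0.15 ± 0.16, adjusted p = 0.56) did not pass. Beside these values, 14 of 17 myeloid markers rose (median 4.66) and 8 of 11 T-cell markers fell (median -0.66). With the myeloid mean as a covariate Ccne2 was at -3.21, Cdkn2c at -1.98 and Ccne1 at -1.62, and Ccnd3 at -0.06. Of the 40 other regulators 24 fell and 1 rose (median -0.70): Ccnf fell by 2.85 ± 0.24, Ccna2 by 2.41 ± 0.69 and Cdkn3, a phosphatase acting on Cdk2, by 2.35 ± 0.37, while Cdk14, a kinase of the CDK family, was higher by 2.57 ± 0.42, or 2.10 counted from the level of genes that are not expressed. Of 15 proliferation markers, 14 fell.

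Against naive cells, control cells after transfer differed in Ccnd1 and, narrowly, in Cdk6, and these 2 of 9 genes compare with 17.7% of all genes called (7.94% higher and 9.81% lower). Ccnd1 was higher by 1.11 ± 0.19 (adjusted p = 0.00212) and Cdk6 by 0.51 ± 0.16 (adjusted p = 0.0453). In a fit of these 6 arrays alone neither was called (Ccnd1 adjusted p = 0.0902, Cdk6 0.194), and Cdk6 was also not called without array 30, 32, 33 or 35 (0.36 to 0.51, adjusted p 0.0748 to 0.2). Cdkn2c (0.61 ± 0.21, adjusted p = 0.0553) and Ccne2 (0.95 ± 0.34, adjusted p = 0.0679) missed the threshold, and Ccnd2 (-0.24), Ccnd3 (0.11), Ccne1 (-0.21), Cdkn1b (0.09) and Cdkn2d (-0.36) did not pass. In the same comparison 10 of 11 T-cell markers fell (median -0.63), and the myeloid markers had a median difference of 2.60, with 4 of 17 called higher. The result turned on which naive arrays were kept. Arrays 34 and 36 are above arrays 33 and 35 in the proliferation markers as well as in the myeloid level, and these cannot be told apart here. Without arrays 34 and 36, with a high myeloid level, 5 genes were called: Ccnd1 (1.43), Ccne2 (1.50), Cdkn2c (0.97), Cdk6 (0.75) and, lower, Ccnd2 (-0.41). Without arrays 33 and 35, which leaves the naive arrays whose myeloid level is nearest to the transferred cells, only Ccnd1 was called (0.79), with Ccne2 at 0.39, Cdkn2c at 0.24 and Cdk6 at 0.27. The myeloid covariate gave 0.67 for Ccnd1, which was called, and 0.18, 0.16 and 0.25 for these 3. Among other regulators 3 of 40 rose and 3 fell, led by Cdk14 (1.46 ± 0.42) and Skp2 (1.23 ± 0.26), the F-box protein that targets Cdkn1b for degradation.

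**Figure D2:**
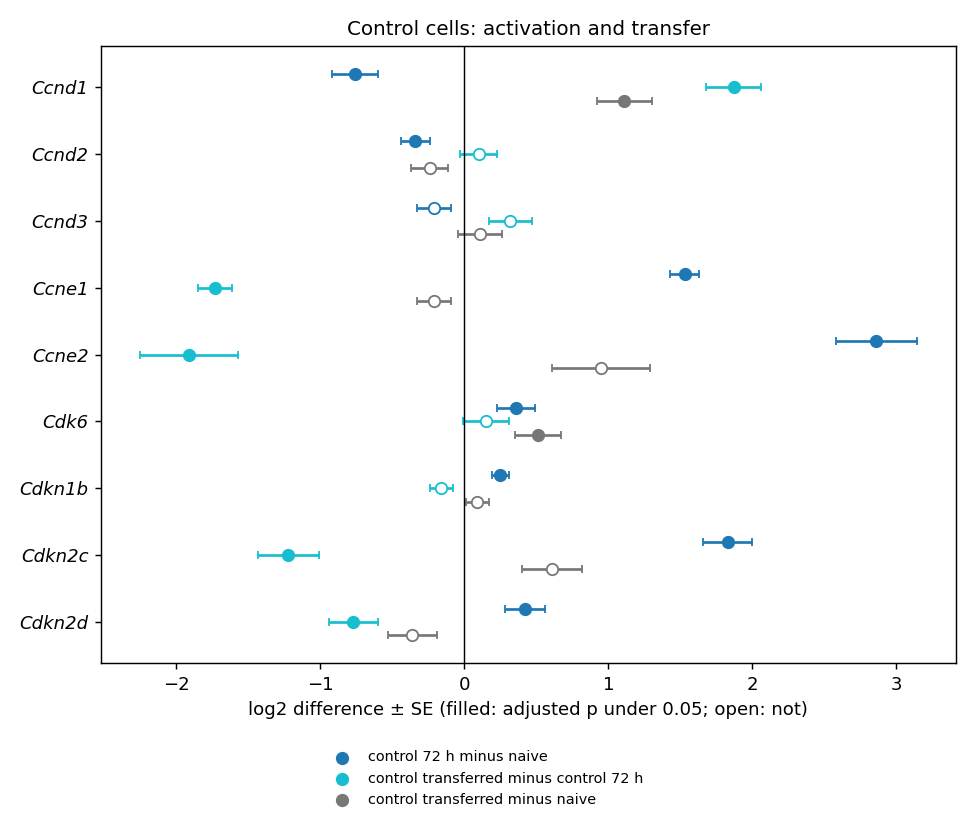
Log2 difference (x axis) of each gene (y axis) between the control groups and naive cells, as limma estimates with standard errors; filled points have an adjusted p under 0.05. The 3 comparisons share arrays. Ccne1, Ccne2 and Cdkn2c lie to the right for control 72 h minus naive and to the left for control transferred minus control 72 h, and Ccnd1 lies the opposite way.

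Ccnd1 ran with the myeloid marker level. Arrays with a myeloid mean under 9 (all arrays at 72 h and naive arrays 33 and 35) read 8.12 to 8.95, the 4 transferred Stat5ca arrays with 10.05 to 11.01 read 9.16 to 9.25, and the 6 arrays with 12.12 or more read 9.24 to 10.17. Array 41, with a myeloid mean of 11.11, read 8.81, and arrays 39 and 40, with 12.68 and 12.62, read 10.14 and 9.85. With the myeloid mean as a covariate, Ccnd1 in control cells after transfer was higher than in control cells at 72 h, by 1.13 ± 0.18 (adjusted p = 0.000392). Against naive cells it was higher by 0.67 ± 0.14 (adjusted p = 0.0135). Its rise from Stat5ca cells at 72 h to those after transfer, 1.05 ± 0.19 (adjusted p = 0.00117), was 0.42 ± 0.17 with the covariate (adjusted p = 0.114). The myeloid mean varies most within the naive group (7.96 to 12.27), so the slope of this fit comes chiefly from naive arrays. It is carried over to control cells at 72 h (8.23 to 8.93) and after transfer (12.74 and 12.89), whose myeloid means do not overlap. The fit therefore cannot decide whether Ccnd1 differs there apart from the myeloid level. Across the groups Cdk6 did not follow the myeloid level: control cells after transfer, with the highest myeloid means, read 11.03 on both arrays. Within the naive group, however, Cdk6 was higher on arrays 34 and 36 (10.67 and 10.84) than on arrays 33 and 35 (10.07 and 10.49). The part of myeloid cells in the Ccnd1 values was not tested beyond this fit.

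**Figure D3:**
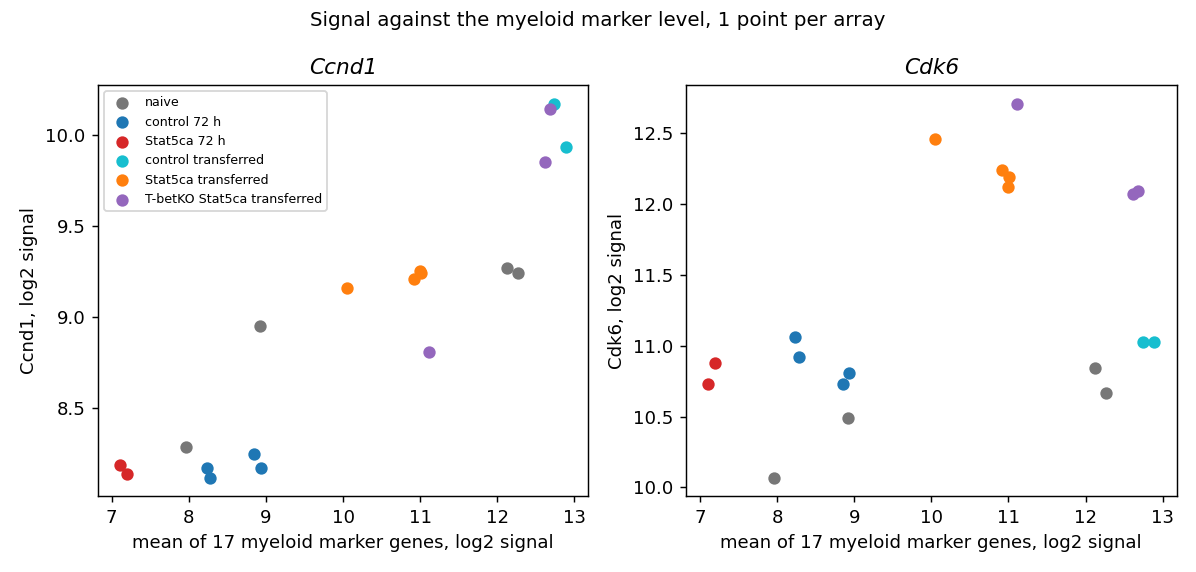
Log2 signal of Ccnd1 (left) and Cdk6 (right) on the y axis against the mean log2 signal of 17 myeloid marker genes on the x axis, with 1 point per array coloured by group. Ccnd1 is higher on arrays with a higher myeloid mean, from 8.12 to 10.17, while Cdk6 above 12 is seen on the 7 arrays of transferred Stat5ca cells alone.

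At 72 h, Stat5ca cells had less Ccne1 than control cells, and the other 8 genes did not pass, so 1 of 9 was called where 5.72% of all genes were (2.37% higher and 3.35% lower). Ccne1 fell by 0.51 ± 0.12 (adjusted p = 0.0223), with both Stat5ca arrays under all 4 controls. That call was lost without control array 1 or 4 or Stat5ca array 9 or 10 (-0.60 to -0.43, adjusted p 0.0623 to 0.291), where none of the 9 genes passed with limma and 2 were under an unadjusted p of 0.05. Ccne2 differed by -1.14 ± 0.34 (adjusted p = 0.0665), again with no overlap, and Cdkn2c by -0.40 ± 0.21 (adjusted p = 0.305). The D-type cyclins differed by -0.01 (Ccnd1), 0.21 (Ccnd2) and 0.28 (Ccnd3), and Cdk6 by -0.08 ± 0.16 (adjusted p = 0.846). Cdkn1b (-0.01) and Cdkn2d (-0.03) were within the spread of the arrays. Of 40 other regulators, 3 fell and 1 rose. E2f1, an activator of S-phase genes, fell by 0.85 ± 0.22, Ccng2, a cyclin of quiescent cells, by 0.66 ± 0.10 and Cdk4 by 0.36 ± 0.09, while Myc, a driver of growth, rose by 0.78 ± 0.16. The 15 proliferation markers had a median difference of -0.66, and 4 fell, among them Mcm2 and Mcm6 of the replicative helicase. Myeloid marker means were 7.20 and 7.11 in Stat5ca and 8.23 to 8.93 in control cells.

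After transfer, Stat5ca cells had more Cdk6, Cdkn2c and Ccne1 RNA than control cells, somewhat more Ccnd2 and Ccnd3, and less Ccnd1. Of the 9 genes 6 were called, 5 higher and 1 lower, where 25.4% of all genes were called (16.9% higher and 8.46% lower), and the median was 0.44 against 0.08 for all genes. The 11 T-cell markers had a median of 0.64, above that of the 9 genes. Whether a higher share of T-cell RNA bears on the values of the 9 genes was not tested. Cdk6 rose 2.34-fold (1.23 ± 0.16, adjusted p = 0.000162). Cdkn2c rose 2.47-fold (1.31 ± 0.21, adjusted p = 0.000476) and Ccne1 1.68-fold (0.75 ± 0.12, adjusted p = 0.000529). For each of the 3, all Stat5ca arrays were above both control arrays. With the myeloid level as a covariate they were called too (Cdk6 1.44, Cdkn2c 1.68, Ccne1 0.69). The myeloid means of these groups do not overlap, however, and the slope of that fit comes chiefly from naive arrays. Ccnd3 rose by 0.44 ± 0.15 (adjusted p = 0.0417) and Ccnd2 by 0.36 ± 0.13 (adjusted p = 0.0456), and with the myeloid covariate Ccnd3 was at 0.62 and Ccnd2, at 0.21, was no longer called (adjusted p = 0.313). Ccnd1 fell by 0.84 ± 0.19 (adjusted p = 0.00536), beside a myeloid mean of 10.05 to 11.01 in Stat5ca and 12.74 to 12.89 in control cells, and was at -0.47 with that level in the fit (adjusted p = 0.0225). Ccne2 differed by 0.94 ± 0.34 (adjusted p = 0.0574) and was called with that covariate, at 1.57 (adjusted p = 0.000333). Cdkn2d (0.30, adjusted p = 0.211) and Cdkn1b (0.17, adjusted p = 0.129) did not pass.

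The control group of 2 arrays spans days 18 and 120, and leaving out either leaves 1 control array, so only sizes are given. Without array 32 (day 120) Ccnd1 was at -0.71, Ccnd2 at 0.23, Ccnd3 at 0.37 and Ccne2 at 1.35. Without array 30 (day 18) Ccnd3 was at 0.51. The calls of Ccnd2 and Ccnd3 lay near the threshold. That of Ccnd2 was lost without any one Stat5ca array, and that of Ccnd3 without Stat5ca array 11, 12 or 14 (adjusted p 0.0547 to 0.0909 over both genes). Array 32 also had the highest erythroid marker mean, 10.45 against 7.31 to 9.18 on the other arrays, and whether this bears on the calls was not tested.

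Other regulators rose in the same comparison, 19 of 40 with 2 lower (median 0.38). Over all genes 16.9% rose and 8.46% fell, with a median of 0.08. Myc rose by 1.08 ± 0.16, Cks1b by 0.92 ± 0.32 and the E2F repressor E2f7 by 0.86 ± 0.18, while Skp2 fell by 1.13 ± 0.26. Of 15 proliferation markers, 8 rose, with Mcm5 at 1.19 ± 0.19 and Mcm6 at 1.12 ± 0.17, and with the myeloid covariate all 15 did. The slope of that covariate comes chiefly from naive arrays, among which the proliferation markers split as the myeloid level does. The count with the covariate therefore cannot separate proliferation from the myeloid level. The T-cell markers rose as well, 9 of 11 with a median of 0.64. Of 16 p53 target genes, 7 rose, among them Phlda3 (1.46 ± 0.18) and Zmat3 (1.02 ± 0.21).

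**Figure D4:**
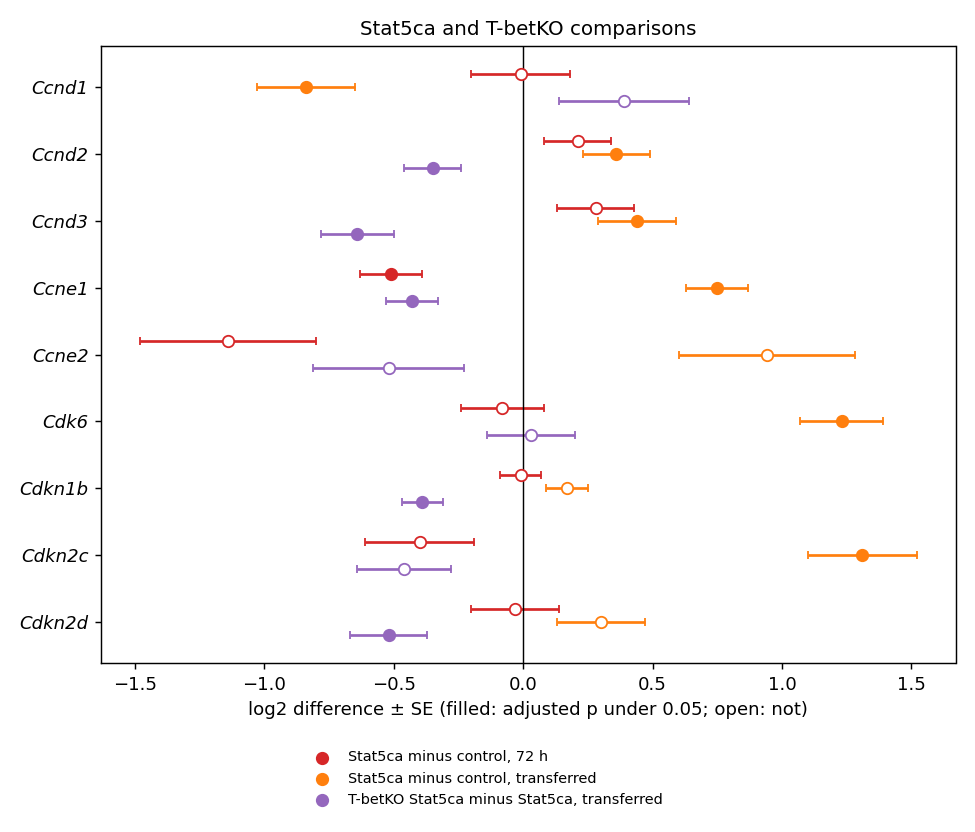
Log2 difference (x axis) of each gene (y axis) for Stat5ca minus control at 72 h, Stat5ca minus control after transfer, and T-BetKO Stat5ca minus Stat5ca after transfer, as limma estimates with standard errors; filled points have an adjusted p under 0.05. The last 2 comparisons share the transferred Stat5ca arrays. Ccne1, Ccne2, Cdkn2c and Cdk6 lie left of 0 at 72 h, with only Ccne1 filled, and right of 0 after transfer.

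The difference between Stat5ca and control cells after transfer was itself tested against that at 72 h. In this test 4 of 9 genes were called, all higher after transfer, where 17.8% of all genes were called (12.3% higher and 5.48% lower). Ccne2 differed by 2.08 ± 0.48 (adjusted p = 0.0083), Cdkn2c by 1.71 ± 0.29 (adjusted p = 0.0012), Cdk6 by 1.31 ± 0.23 (adjusted p = 0.00159) and Ccne1 by 1.27 ± 0.17 (adjusted p = 0.000261). Without Stat5ca array 10 or control array 30, Ccne2 was at 1.90 (adjusted p = 0.051) and 1.67 (adjusted p = 0.0553). Ccnd1 differed by -0.82 ± 0.27 (adjusted p = 0.0502), and Ccnd2 (0.15), Ccnd3 (0.16), Cdkn1b (0.18) and Cdkn2d (0.33) did not pass. Of the other regulators 17 of 40 were called, all higher, led by Ccnf (1.63 ± 0.34), E2f1 (1.49 ± 0.31) and E2f7 (1.41 ± 0.25), and so were 9 of 15 proliferation markers (median 1.64). T-cell markers were called higher for 4 of 11 (median 0.43), and whether the share of T-cell RNA bears on these values was not tested.

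Between Stat5ca cells at 72 h and after transfer, 4 of 9 genes were called, 3 higher and 1 lower, where 21.3% of all genes were called (8.61% higher and 12.7% lower). Cdk6 rose by 1.45 ± 0.16 (adjusted p = 2.08e-05), and with the myeloid covariate by 1.07 ± 0.20 (adjusted p = 0.00146). Ccnd3 rose by 0.48 ± 0.15 (adjusted p = 0.0307), but was at 0.33 to 0.48 (adjusted p 0.0566 to 0.343) without array 10, 11, 12 or 14 and at 0.16 with the myeloid covariate. Ccnd1 rose by 1.05 ± 0.19 (adjusted p = 0.00117), but was not called with that covariate (0.42, adjusted p = 0.114). Ccne1 fell by 0.47 ± 0.12 (adjusted p = 0.0115), or, without array 9, by 0.38. With the myeloid covariate Ccne1 was at -0.37 and not called (adjusted p = 0.192). Ccnd2 (0.25), Ccne2 (0.16), Cdkn1b (0.02), Cdkn2c (0.49, adjusted p = 0.113) and Cdkn2d (-0.44, adjusted p = 0.0725) did not pass. Of the other regulators, 9 of 40 fell and 4 rose, with Cdkn3 at -1.56 ± 0.37 and Ccnf at -1.22 ± 0.24.

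Compared with naive cells, Stat5ca cells after transfer had 6 of the 9 genes higher and 3 not called, where 28.6% of all genes were called (15.8% higher and 12.7% lower). Cdkn2c rose 3.77-fold (1.92 ± 0.17, adjusted p = 1.31e-06) and Cdk6 3.33-fold (1.74 ± 0.13, adjusted p = 3.59e-07). Ccne2 rose by 1.89 ± 0.28 (adjusted p = 0.000164), or by 1.37 counted from the level of genes that are not expressed. Ccne1 (0.55 ± 0.10), Ccnd3 (0.54 ± 0.12) and Cdkn1b (0.26 ± 0.06) rose by less. Ccnd1 (0.27), Ccnd2 (0.12) and Cdkn2d (-0.05) did not pass. Without naive arrays 34 and 36 Ccnd1 was called at 0.59 (adjusted p = 0.00541) and Cdkn1b, at 0.22, was not (adjusted p = 0.0548). Without naive arrays 33 and 35 Ccnd1 was at -0.04 (adjusted p = 0.752), Ccnd2 was called at 0.30 (adjusted p = 0.025) and Ccne2 was at 1.33. Among other regulators 21 of 40 rose and 2 fell (Ccna2 2.26 ± 0.56, Cks1b 1.76 ± 0.26, Myc 1.17 ± 0.13), and all 15 proliferation markers rose (median 1.33).

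**Figure D5:**
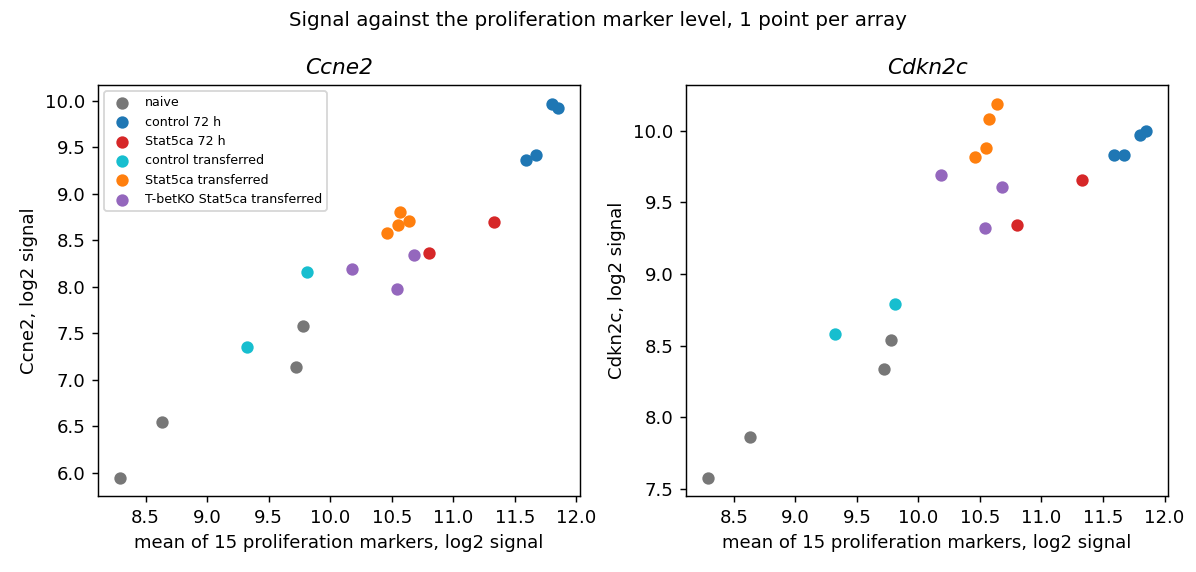
Log2 signal of Ccne2 (left) and Cdkn2c (right) on the y axis against the mean log2 signal of 15 proliferation markers on the x axis, with 1 point per array coloured by group. Both genes are low where the marker mean is low, and the transferred Stat5ca arrays, at a marker mean of 10.46 to 10.64, have Cdkn2c at 9.82 to 10.19, above Stat5ca arrays at 72 h with 10.80 and 11.33.

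Ccne2 and Cdkn2c can be set beside the proliferation markers. The marker mean was 8.29 to 9.78 in naive cells, 11.59 to 11.85 in control and 10.80 and 11.33 in Stat5ca cells at 72 h. After transfer it was 9.32 and 9.81 in control, 10.46 to 10.64 in Stat5ca and 10.18 to 10.68 in T-BetKO Stat5ca cells. Ccne2 was highest where the markers were highest, in control cells at 72 h. Its values in Stat5ca cells after transfer overlapped those in Stat5ca cells at 72 h, although the marker means of these groups did not. The Cdkn2c values of Stat5ca cells after transfer overlapped those of control cells at 72 h, and again the marker means did not overlap. The part of proliferation in either value was not tested.

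T-BetKO Stat5ca cells after transfer had less Ccnd3, Cdkn1b, Ccne1, Cdkn2d and Ccnd2 RNA than Stat5ca cells after transfer, and Cdk6 was not called. Tbx21, which codes for T-bet, fell by 3.60 ± 0.13. Of the 9 genes 5 were called, all lower, where 20.8% of all genes were called (7.03% higher and 13.8% lower), with a median of -0.43 against -0.02. Ccnd3 fell by 0.64 ± 0.14 (adjusted p = 0.00459), Cdkn2d by 0.52 ± 0.15 (adjusted p = 0.0197) and Ccne1 by 0.43 ± 0.10 (adjusted p = 0.00842). Cdkn1b fell by 0.39 ± 0.08 (adjusted p = 0.004) and Ccnd2 by 0.35 ± 0.11 (adjusted p = 0.0317). All 3 T-BetKO arrays were under all 4 Stat5ca arrays for each of these 5 genes. Cdk6 differed by 0.03 ± 0.17 (adjusted p = 0.92), Ccnd1 by 0.39 ± 0.25 (adjusted p = 0.298), Cdkn2c by -0.46 (adjusted p = 0.0838) and Ccne2 by -0.52 (adjusted p = 0.223). Of the other regulators 9 of 40 fell, with Myc at -0.70 ± 0.14 and Skp1, a partner of Skp2, at -0.64 ± 0.14, and of 15 proliferation markers 1 fell, Pcna (-0.49 ± 0.10).

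Genotype, strain, stimulus, labelling protocol and day cannot be told apart in that comparison, and Stat5a fell by 0.75 ± 0.11 in the T-BetKO cells. Their RNA integrity numbers were 7, 6 and 8, against 8 or 9 in Stat5ca cells. With that number as a covariate 1 gene was called, Ccne1 (-0.51, adjusted p = 0.0406). Ccnd3 (-0.50), Cdkn2d (-0.54), Ccnd2 (-0.38) and Cdkn1b (-0.28) kept their direction without a call. With the myeloid mean as a covariate Cdkn2c (-0.66, adjusted p = 0.00745) and Ccne2 (-0.91, adjusted p = 0.00811) were called lower as well, and Ccnd2 was not called (-0.24, adjusted p = 0.122). The myeloid means do not overlap here either, at 11.11 to 12.68 in T-BetKO and 10.05 to 11.01 in Stat5ca cells. The slope of that fit again comes chiefly from naive arrays. Of the T-cell markers 5 of 11 fell and 1 rose, and 4 of 9 B-cell markers rose, where 13.8% of all genes fell and 7.03% rose. The median over the T-cell markers was -0.43, equal to that over the 9 listed genes. Whether a lower share of T-cell RNA bears on the falls was not tested. Without arrays 39 and 40, which have the high myeloid means, array 41 alone is left in the T-BetKO group, so only sizes are given. Ccnd3 was then at -0.40, Cdkn2d at -0.72, Ccne1 at -0.38, Cdkn1b at -0.25 and Ccnd2 at -0.23. Calls were also lost for Cdkn2d without array 40 or 41 (-0.54 and -0.42), for Ccne1 without array 40 (-0.38) and for Ccnd2 without array 11, 12, 13, 39 or 40 (-0.35 to -0.31), while without array 41 Ccnd1 was called at 0.78 (adjusted p = 0.00624).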

How the data were processed

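The deposited values are log2 signals for 35557 probe sets on each of 19 arrays, made with Affymetrix Expression Console per the submitters' processing notes. The sources used here do not give its version, summarization or normalization, and that the scale is log2 was read from the range of the values. Of the probe sets, 21789 carried 1 gene, 1621 several and 12147 none. Array medians lay between 7.69 and 7.89, and the number of arrays limits the precision.

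The 19938 genes, each at its brightest probe set, were tested with lmFit and eBayes of limma 3.58.1 (R 4.3.3) without covariates. The 16 TCRP1A arrays shared 1 fit for 8 of the 9 comparisons, and all 19 entered the T-BetKO comparison. P-values were adjusted over all genes of a comparison by the Benjamini-Hochberg method, and an adjusted p under 0.05 is a call. Errors of means are SD and errors of differences are SE. No numbers in the labels link arrays of different groups.

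The rule names all measured listed genes in every comparison, with up to 4 called genes with the largest change from the 40 other regulators, and up to 3 from each marker list. Examples of these are printed. Chek1 and H1f5 were the 2 genes nearest in profile to Ccne2. The genes and the lists were chosen with earlier results of these data known. Of 130 list genes, 117 were measured.

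Alternatives were quantile normalization, median centring, leaving out dim genes, averaging probe sets, a 2-fold minimum, trend and robust eBayes, array weights, other arrays in the fit, covariates (RNA integrity number, myeloid level, Y-linked level), 3 pairs of arrays left out, and each array left out in turn. The Y-linked level used Eif2s3y, Kdm5d and Uty, since Ddx3y had no probe set of its own. The slope of the myeloid covariate comes chiefly from the naive arrays, since that level varies most within their group. The fits were also tested on simulated data. Tables and figures were made with Python 3.11.15, pandas 2.3.3, numpy 2.4.6 and matplotlib 3.10.9.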

Additional observations from a re-analysis of the deposited data

Results flagged for a closer look

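A pair of single arrays stood apart within the naive group. Ccne1 read 9.88 on naive array 35 while the other 3 naive arrays read 9.55 to 9.58, and Cdkn2d read 9.34 on naive array 33 while the others read 9.67 to 9.72. Each gap was wide against the range of its group of 4. Such a gap was looked for in 27 groups of values, and chance gives about 1 in 20.

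For 4 genes the difference between Stat5ca and control cells was not the same after transfer as at 72 h, in limma's test of that change. The changes were 1.27 for Ccne1, 2.08 for Ccne2, 1.71 for Cdkn2c and 1.31 for Cdk6, each higher after transfer.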

How the results depend on the processing

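Over single arrays left out in turn, 537 of 585 gene differences stayed on their side of the threshold, 43 lost a call and 5 gained one. No called difference changed sign, while 13 that were not called did, with a size of at most 0.16. Over the other alternatives 908 of 1026 stayed on their side, 73 lost a call and 44 gained one. Of those without a call, 30 changed sign, among them Cdkn2c in transferred against 72 h Stat5ca cells, from 0.49 to -0.15 with a myeloid covariate, and Ccnd1 for T-BetKO, from 0.39 to -0.41 without arrays 39 and 40. Across a call 1 changed sign: Ccne2 in transferred against 72 h Stat5ca cells was 0.16, but -0.94 with a myeloid covariate (adjusted p = 0.0435). The cause was not tested.

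A 2-fold minimum left 3 of 8 called genes for control 72 h against naive, 0 of 1 for Stat5ca at 72 h, 1 of 2 for control transferred against naive, 2 of 6 for Stat5ca against control after transfer, 2 of 4 for transferred against 72 h Stat5ca cells, 3 of 6 for transferred Stat5ca against naive cells, and 0 of 5 for T-BetKO. For Stat5ca at 72 h, 4 genes were called with array weights, 2 in a fit of the groups compared alone and 2 with the Y-linked covariate, and 0 to 1 with single arrays left out. For control transferred against naive cells, 1 was called with array weights, 1 with all 19 arrays in the fit, 1 with the RNA integrity number and 1 with the myeloid covariate, 0 in a fit of the groups alone (2 under an unadjusted p of 0.05, limma), 5 without naive arrays 34 and 36, 1 without 33 and 35, and 1 to 4 with single arrays left out. For transferred against 72 h Stat5ca cells, array weights and a fit of the groups alone each gave 7. For T-BetKO, 1 was called with the RNA integrity number, between 0 and 7 over the other alternatives, 0 without arrays 39 and 40 (3 under an unadjusted p of 0.05, limma), and 2 to 5 with single arrays left out. Shares of all genes called were taken from the main fit alone, so no count under an alternative has such a share beside it. Whether calls over all genes rose or fell alike under array weights, a smaller fit or the other alternatives was not tested. These counts therefore do not show a change particular to the listed genes. No paired analysis was possible because the groups share no replicate numbers. Groups of 2 arrays limit every comparison that uses them, and their spread is taken from all arrays of the fit.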

Other observations

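Of 6 natural killer cell markers, 3 rose in Stat5ca cells against control cells after transfer, where 16.9% of all genes rose and 8.46% fell: Gzma, a granzyme, by 4.16 ± 0.41, Klrb1c, a killer cell receptor, by 3.40 ± 0.36, and Eomes, a transcription factor of memory and killer cells, by 1.78 ± 0.44. Between T-BetKO Stat5ca and Stat5ca cells after transfer 2 of the 6 fell, Klrb1c (-2.51 ± 0.35) and Gzma (-1.09 ± 0.34), where 13.8% of all genes fell. CD8 T cells also express these genes. Of 9 B-cell markers, 4 fell and 1 rose in Stat5ca against control cells after transfer, with Blnk at -1.78 ± 0.29, and their mean lay between 7.01 and 7.78 on every array. None of the 3 erythroid markers measured passed in that comparison with limma.

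The p53 target genes are a list to which Cdkn1a belongs by function. Of 16 measured, 11 rose between naive and control cells at 72 h (median 0.55), where 22.0% of all genes rose, with Perp at 2.05 ± 0.14, Phlda3 at 1.38 ± 0.14 and Zmat3 at 1.09 ± 0.17. In control cells after transfer 7 fell and 3 rose against 72 h, or 10 of 16, where 37.5% of all genes were called. In T-BetKO against Stat5ca cells after transfer 3 of 16 fell, near the share over all genes (13.8% lower, 20.8% in either direction).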
